A study of Mus musculus with 24 samples.

Results

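The RNA-seq libraries of CD31-sorted mouse brain endothelial cells collected at zeitgeber time (ZT, hours after lights on) ZT6 and ZT18 were compared with those collected at ZT2, ZT10, ZT14 and ZT22. The members are the 8 libraries of these 2 times of day, of 24 libraries in all, as the time of day in their labels gives them. Their sample numbers follow each other without a gap. The 8 libraries hold 4 controls and 4 mutants and the other 16 hold 8 of each. Control mice were Bmal1fl/fl and mutant mice were Bmal1fl/fl; Tie2cre, both on C57BL/6J, and each library came from the sorted cells of 1 mouse. Both genotypes therefore carry the floxed Bmal1 (Arntl) allele, and the Tie2 promoter that drives Cre is active in endothelium and also in cells of the blood lineage. Mice of both sexes were kept in a 12 h light and 12 h dark cycle and killed at ZT2, ZT6, ZT10, ZT14, ZT18 or ZT22, with 2 mice per genotype and time. Ages for these mice are not stated in the labels. No treatment other than the light cycle is given in the labels.

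Endothelial cells line the brain's capillaries and form the blood–brain barrier through tight junctions, low vesicle traffic and a dense set of transporters. Pericytes and smooth muscle cells sit on the outer face of the same vessels, astrocyte endfeet wrap them, and microglia, the brain's resident macrophages, contact them with their processes. CD31, the product of Pecam1, is carried by endothelium and, at lower density, by platelets and some leukocytes. The brains were digested with collagenase and DNase, cleared of myelin, depleted of CD90-bearing cells on magnets and sorted for CD31 on either of 2 types of sorter. Which sorter served which library is not stated. RNA of nearby cells can enter such a preparation as whole cells, as fragments attached to vessels or as free RNA.

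Levels are given as normalized reads, which are the deposited counts scaled by edgeR's trimmed mean of M values (TMM) to the mean library size. A difference, given on the log2 scale throughout, is the log2 fold change of the 8 libraries minus the other 16 with genotype in the model, so that a negative value means lower in the 8. A gene is called where edgeR's quasi-likelihood test gave a Benjamini-Hochberg adjusted p below 0.05 over all 15493 genes tested. Totals lay between 6136404 and 6217357 reads in the 8 libraries and between 6199072 and 6648311 in the others. These totals had already been brought close to each other in the deposited table, so they do not give the original sequencing depth. The targeted gene Arntl was read at 56.1 to 270.4 normalized reads in the 4 controls of the 8 and at 84.0 to 292.6 in the 4 mutants. In the other libraries it spanned 0.987 to 464 in controls and 121 to 358 in mutants, so that gene-level reads, which include exons outside the deleted one, do not check the genotype labels. The endothelial markers Cldn5, Pecam1 and Cdh5 were high in all 24 libraries, and their summed list took 3.44% to 5.10% of the reads outside the mitochondrial genome. This run of sample numbers and the 2 times of day mark the same 8 libraries and cannot be told apart. ZT6 and ZT18 also lie 12 h apart, so a rhythm of 12 h and a difference in preparation cannot be told apart either. Small increases depended on the scaling, and values under endothelial scaling are given beside many of them. This setting, added after seeing the data, takes the summed reads of the 34 genes of the brain endothelial list as the library size, which fixes that list near 0 by construction and moves the median of all genes from -0.01 to -0.32. All 8 libraries carry the i5 sequencing index TATAGCCT, which 4 of the others, the controls of ZT2 and ZT10, carry too.

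A total of 2595 genes differed between the 8 libraries and the other 16, which is 16.7% of those tested. Of these, 907 genes (5.85%) were higher and 1688 genes (10.9%) were lower in the 8 libraries. Under endothelial scaling the split was 79 higher, all 79 among the 907, and 3921 lower. The lower genes had a median difference of -1.66 and 1270 of them were at -1 or below, whereas the higher genes had a median of 0.43 and 56 of them were at 1 or above. The filter on reads (at least 5 reads in 6 controls or in 6 mutants) can pass a gene read only in the other 16 but not one read only in the 8, which hold 4 of each genotype. With a filter that treats both sets alike, 5 or more reads in 4 of the 8 or in 8 of the 16 (added after seeing the data), 981 of 15607 genes were higher, 73 of them at 1 or above, and 1728 were lower, 1316 of them at -1 or below. Leaving out 1 library moved the counts of several lists by over 1.5 times, and ranges over the 24 such fits are given beside them. The first principal component, which held 20.5% of the variance, placed the 8 libraries between 57.7 and 89.1 and the other 16 between -67.1 and -7.69. For 364 genes (2.35%) every one of the 8 libraries lay below all of the other 16, and for 29 genes (0.187%) every one lay above. The differences had the same sign in controls and in mutants for 2594 of the 2595 called genes, and the same sign at ZT6 and at ZT18 for all 2595, values that come from the libraries used for the calls. Among the 8 controls with index TATAGCCT, 4 from the 8 libraries and 4 others, 164 genes were higher and 632 were lower. With the index as a term of the model for all 24 libraries, the counts were 191 and 812. In mutants the index and the library set mark the same libraries and cannot be told apart. That fit therefore separates them only through the 4 other controls with index TATAGCCT. In that fit all 20 microglial genes were still called lower (median -3.71), as were 14 of 23 astrocyte genes, 11 of 24 neuronal genes and 8 of 13 mitochondrial protein genes, and 3 of 34 brain endothelial genes, 2 of 10 smooth muscle genes and 6 of 26 immediate-early genes were called higher, while none of 14 pericyte genes was.

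**Figure D1:**
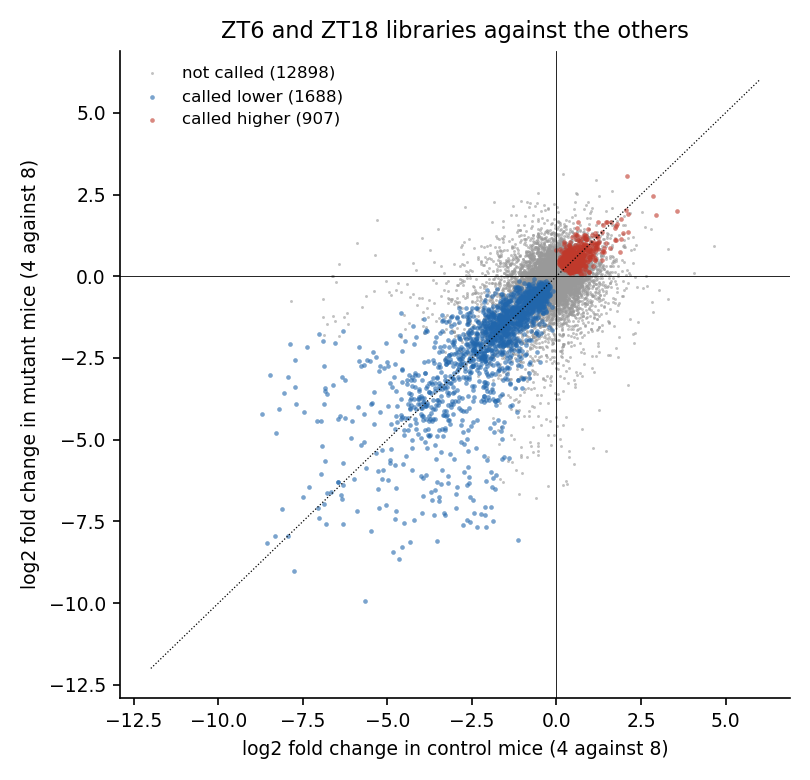
Log2 fold change of the ZT6 and ZT18 libraries against the other 16 in controls (x axis) and in mutants (y axis), 1 point per gene tested, coloured by the call in all 24 libraries. The called genes lie in the lower left and upper right, with 2594 of 2595 on the same side in both genotypes, and the lower genes reach much farther from 0 than the higher genes.

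Microglial genes gave the clearest separation. All 20 microglial genes fell in the 8 libraries, with a median difference of -3.71, or 13.1-fold lower, against a median of -0.01 over all genes. The decrease ranged only from -2.90 for Aif1, an actin-binding protein of macrophages, to -4.43 for Gpr34, a lysophospholipid receptor. For 19 of the 20 genes the groups did not overlap, the exception being Tyrobp, a signalling adaptor of microglial surface receptors. As a share of the reads outside the mitochondrial genome, the summed list took 0.0322% to 0.0553% (median 0.0388%) in the 8 libraries and 0.292% to 0.768% (median 0.563%) in the others. The gap was there in both genotypes, at 0.0322% to 0.0553% against 0.292% to 0.699% in controls and 0.0358% to 0.0464% against 0.317% to 0.768% in mutants. Between the 2 times of the 8 libraries the shares differed much less but did not overlap. They were 0.0322% to 0.0387% (median 0.0346%) at ZT6 and 0.0390% to 0.0553% (median 0.0435%) at ZT18. In sorted bulk RNA, fewer cells of a type and less RNA per cell cannot be told apart.

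Csf1r, the receptor for the growth factors on which microglia depend, ranged from 227 to 400.4 normalized reads (median 277) in the 8 libraries and from 2444 to 7164 (median 5331) in the other 16. Its difference of -4.10 ± 0.19 (SE, adjusted p = 3.26e-17) corresponds to 17.1-fold lower. Cx3cr1, the fractalkine receptor (chromosome 9, 119901616 to 120069879, minus strand of GRCm38, ENSMUSG00000052336), lay between 120.0 and 225 with a median of 169, against 1594 to 4555 with a median of 3055, a difference of -4.12 ± 0.19 (SE, adjusted p = 3.26e-17). In both genes the highest of the 8 libraries stayed several-fold below the lowest of the others, and no library was intermediate. P2ry12, the purinergic receptor of surveying microglia, ranged from 45 to 225 normalized reads (median 106) in the 8 libraries and from 792 to 2297 (median 1473) in the other 16. Tmem119, a membrane protein used to tell microglia from blood-derived macrophages, ranged from 6.92 to 68.4 normalized reads (median 37.6) in the 8 libraries and from 279.7 to 959 (median 588) in the other 16, with a difference of -4.04 ± 0.28 (SE, adjusted p = 2.80e-13). The complement gene C1qc lay between 68.9 and 123 with a median of 90.4, against 764 to 2094 with a median of 1379, a difference of -3.91 ± 0.18 (SE, adjusted p = 3.40e-17). These genes thus showed the same picture for receptors, for secreted complement and for a lineage marker, each with the 8 libraries together at the bottom. Tyrobp was low in depth, at between 6.22 and 60.9 with a median of 18.8, against 48.5 to 319.8 with a median of 184, and the control of ZT18 labelled replicate 2 was the library of the 8 that reached into the range of the others.

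The genes with the smallest p-values among the decreased genes were nearly all of this kind. Besides Csf1r, Cx3cr1 and C1qc they included Sirpa (-3.76), the receptor for the "do not eat me" signal CD47, and Selplg (-3.82), the ligand of P-selectin. They also included the lysosomal membrane protein gene Laptm5 (-3.65) and Ctss (-3.56), a protease of the antigen-presentation pathway. Fcgr3 (-4.12), a receptor for immunoglobulin G, and Mpeg1 (-3.66), a pore-forming protein of macrophages, followed, and none of the genes named here had overlapping groups. All of these genes were called in each of 44 alternative fits. The 5 decreases of Ccl2, Tagap, Gpr84, Rgs1 and Wdfy4, described further below, had too few reads in the 8 libraries to be tested with 10 or more reads required in every library. They were called in the other 43 fits, but most of those used the filter described with them, so nothing is concluded from these calls. Genes outside the lists that fell as far as the microglial genes were chosen after their values were seen. They included Ptprc (-4.04), the pan-leukocyte phosphatase CD45, and Ikzf1 (-4.59), a transcription factor of blood cells. Others were C3ar1 (-4.50), the receptor for a complement fragment, Tlr7 (-4.16), a sensor of single-stranded RNA, and Nlrp3 (-4.73), the inflammasome sensor. In all, 374 genes fell to -2.90 or below, the size of the weakest microglial gene. Of these, 20 were in the microglial list and 8 were in a list of another cell type, so that 346 stood in no cell type list. The filter on reads can pass a gene read only in the other 16 libraries, and such a gene can enter only if it is lower in the 8. These counts include genes of that kind, and their number is not given here.

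At a mean of 50 or more normalized reads in the higher of the 2 sets of libraries, the 5 largest decreases were those of Ccl2, Tagap, Gpr84, Rgs1 and Wdfy4. All but Wdfy4 passed the filter on reads through the other 16 libraries only, and a gene of this kind can enter the test only if it is lower in the 8. Ccl2, a chemokine that draws monocytes (chromosome 11, 82035571 to 82037453, plus strand of GRCm38), lay between 0 and 5.89 with a median of 0, against 19.1 to 319 with a median of 133. Its difference was -6.53 ± 0.71 (SE, adjusted p = 9.68e-09), and 6 of the 8 libraries, among them all 4 mutants, had no read of it. Tagap, a GTPase-activating protein of immune cells, ranged from 0 to 9.94 normalized reads (median 1.5) in the 8 libraries and from 44.6 to 243 (median 168) in the other 16, a difference of -5.81 ± 0.45 (SE, adjusted p = 4.99e-12). Gpr84, a receptor for medium-chain fatty acids on activated microglia, had reads in only 1 of the 8 libraries and lay between 9.70 and 81.1 normalized reads in the other 16. Rgs1 (-5.51), a regulator of G protein signalling in leukocytes, and Wdfy4 (-5.41), a gene of antigen-presenting cells, were the others. Il1a, which encodes the cytokine interleukin-1 alpha, ranged from 0 to 19.4 normalized reads (median 5.91) in the 8 libraries and from 60.1 to 647 (median 224) in the other 16, and the chemokine gene Ccl3 ranged from 0 to 14.7 normalized reads (median 4.99) in the 8 libraries and from 47.8 to 506 (median 171) in the other 16, the highest value being that of the control of ZT10 labelled replicate 1 and the next highest 313. Il1a and Ccl3 were chosen after their values were seen, and in both some of the 8 libraries had no read. Ccl2 also stands in the list of inflammatory activation, in which only Tnfaip3 (-1.13), an inhibitor of NF-κB signalling, fell beside it. Of the 14 genes tested in that list, 2 fell and 2 rose, 14.3% each, where 10.9% and 5.85% of all genes did. Nfkbia (0.34), another NF-κB inhibitor, and Irf1 (0.53) were called higher, but under endothelial scaling they were at 0.01 and 0.20 and neither was called, and Nfkbia lost its call in 9 of the 24 fits that left out 1 library. The count of higher genes in this list was 1 to 3 over those fits. The endothelial adhesion molecules of the same list, Vcam1 (0.32), Icam1 (0.10), Selp (-0.42) and Sele (-0.73), did not pass the test.

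Hk2, which encodes the hexokinase that takes the first step of glycolysis in many stimulated cells, fell as far as the microglial genes. It lay between 9.11 and 42.5 with a median of 28, against 186 to 707 with a median of 385, a difference of -3.93 ± 0.26 (SE, adjusted p = 1.57e-13) (chromosome 6, 82725025 to 82774454, minus strand of GRCm38). Hk1, the hexokinase of most brain cells, differed by 0.08 and did not pass the test. Of the 18 genes for glycolysis and hypoxia tested, 5 fell (27.8%, against 10.9% of all genes) and 1 rose (5.56%, near the 5.85% of all genes). The decreases of Gapdh (-0.42), Pgk1 (-0.45) and Eno1 (-0.32), which encode later enzymes of the pathway, were much smaller than that of Hk2, and Eno1 lost its call in 13 of the 24 fits that left out 1 library. Vegfa, the growth factor of vessels, fell by 0.74 on the log2 scale, and Ndrg1 (0.40, and 0.11 without a call under endothelial scaling), a hypoxia-responsive gene, was the member that rose. Leaving out 1 library gave 3 to 6 lower and 0 to 2 higher genes in this list, 3 lower without either the mutant of ZT6 labelled replicate 1 or the mutant of ZT18 labelled replicate 2.

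Macrophage and blood cell genes outside the microglial list moved less uniformly. Of 6 genes of perivascular macrophages, 3 fell, Mrc1 (-2.99), a mannose receptor, Cd163 (-2.60), the haemoglobin scavenger receptor, and F13a1 (-2.08), a transglutaminase. Cd163 passed the filter through the other 16 libraries only. Pf4 (-0.80), Cbr2 (-0.52) and Dab2 (0.17) did not pass the test. Most genes of neutrophils, monocytes and lymphocytes were too low to be tested. In each of these 2 lists, 1 of 13 genes passed the filter on reads. Csf3r, the receptor for granulocyte colony-stimulating factor, which microglia also express, ranged from 5.04 to 45.5 normalized reads (median 18.0) in the 8 libraries and from 85.4 to 511 (median 249.9) in the other 16, and Ighm, the heavy chain of immunoglobulin M, differed by -3.37. None of the 8 platelet genes was called (median -0.78). Of these, 3 (Gp1ba, Gp1bb and Gp9) passed the filter through the other 16 libraries only, the median of the remaining 5 was -0.40, and 1 gene was called lower without the control of ZT18 labelled replicate 1. Of 9 red blood cell genes, 5 fell, Alas2 (-0.59) and the globin genes Hbb-bs (-0.63), Hbb-bt (-0.81), Hba-a1 (-0.61) and Hba-a2 (-0.74). This count rests on single libraries, as leaving out 1 gave 1 to 5 called genes, with 12 of the 24 fits at 3 or fewer, and Hbb-bs lost its call in 15 of them and Hba-a1 in 13. The globin copies are nearly identical, and reads may have been split between them.

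**Figure D2:**
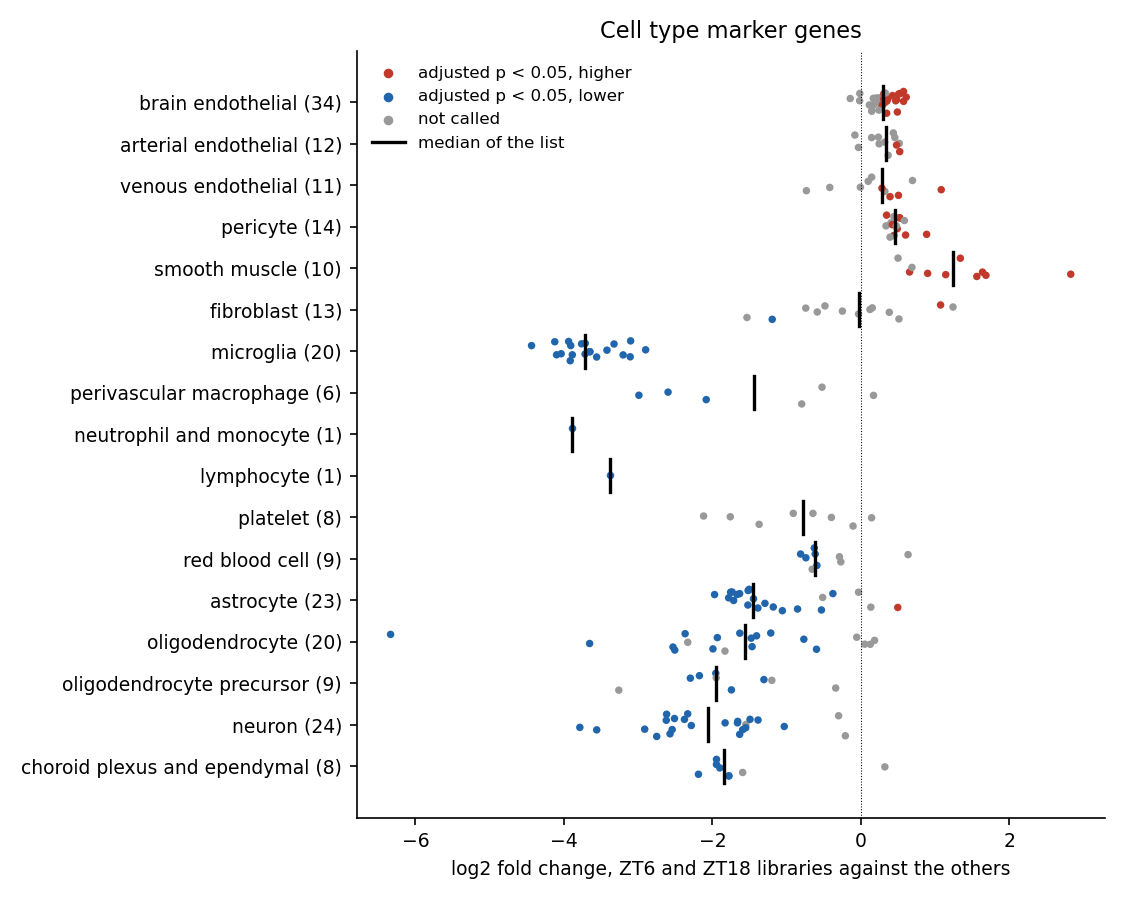
Differences (log2 fold change) between the 8 libraries and the other 16 for the tested genes of each cell type list, 1 point per gene, with called genes in red (higher) or blue (lower), others in grey, and a black bar at each list's median. Microglial genes form a tight group near -3.71, most astrocyte, oligodendrocyte and neuronal genes lie below 0 with medians from -1.45 to -2.06 and more scatter, and endothelial and pericyte genes sit just above 0. The point farthest to the left is Mog, which had no read in the 8 libraries and whose fitted value depends on a prior count.

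Gene lists of the other brain cells had smaller median decreases than the microglial list. Of their genes at -2.90 or below, all but Ndrg4 passed the filter on reads through the other 16 libraries only. Astrocyte genes fell in 19 of 23 cases, with a median of -1.45 (2.72-fold), and 10 of them had groups without overlap. Slc1a2, the main astrocyte glutamate transporter (chromosome 2, 102658659 to 102790784, plus strand of GRCm38), ranged from 2873 to 5668 normalized reads (median 3317) in the 8 libraries and from 7094 to 15123 (median 9067) in the other 16, a difference of -1.45 ± 0.13 (SE, adjusted p = 3.98e-10). Its highest value among the 8 libraries belonged to the mutant of ZT6 labelled replicate 1 and still lay below the lowest of the others. The intermediate filament gene Gfap (-1.97), the glycolytic enzyme gene Aldoc (-1.75) and the water channel gene Aqp4 (-1.67) fell likewise. Gja1 (0.14), a gap junction protein also found in vessel walls, Htra1 (-0.03) and Fgfr3 (-0.51) did not pass the test. Plpp3, a lipid phosphatase that endothelium also carries, rose by 0.50, the only member of the list to do so. Under endothelial scaling this increase was 0.18 and was not called, nor was it in 3 fits that left out 1 library (either control or the mutant labelled replicate 2 of ZT6).

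Neuronal genes fell in 21 of 24 cases (median -2.06, 4.16-fold). Of the 24, 5 (Gad1, Gad2, Rbfox3, Stmn3 and Thy1) passed the filter on reads through the other 16 libraries only, with 5 or more reads in fewer than 4 of the 8. Of the remaining 19 genes, 17 fell, with a median of -1.66. Kif5a, a motor protein of axonal transport (chromosome 10, 127225696 to 127263348, minus strand of GRCm38), ranged from 851 to 1657 normalized reads (median 1272) in the 8 libraries and from 2000.5 to 6603 (median 3787) in the other 16, without overlap and with a difference of -1.63 ± 0.17 (SE, adjusted p = 5.11e-09). Ndrg4 (-2.91), a neuronal gene of the same list, was the other member without overlap. Synaptic genes such as Snap25 (-2.38) and Syt1 (-2.57), and the genes for the enzymes that make GABA, Gad1 (-2.62) and Gad2 (-3.56), fell as well. The members not called were Calm2 (-0.21), a calmodulin gene used by most cells, Uchl1 (-0.30), a ubiquitin hydrolase, and Thy1. Thy1 encodes CD90, the antigen used to deplete cells before the sort, and its difference was -1.55 ± 0.63 (SE, adjusted p = 0.0941).

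Oligodendrocyte genes fell in 14 of 20 cases (median -1.55, 2.93-fold) and precursor genes in 5 of 9 (median -1.95). Mog, a protein of the outermost myelin layer, had no read in any of the 8 libraries and up to 30.8 normalized reads in the others (median 7.94). Mog, Aspa, Cldn11 and Mag passed the filter through the other 16 libraries only, and without these 4 genes 12 of 16 fell (median -1.43). Of the precursor genes, 2 (Lhfpl3 and Sox10) did so, and neither was called. Without these 2, 5 of 7 precursor genes fell (median -1.74). The more abundant myelin gene Mbp (-1.48) fell by less, while Mal (0.13), Tspan2 (-0.06), Sept4 (0.19) and Apod (0.05) were close to 0. Trf (-2.53), which encodes transferrin, and Ermn (-2.37), a cytoskeletal protein of myelinating cells, fell further than Mbp. Of the precursor genes, Bcas1 (-1.74), a marker of cells that begin to form myelin, Olig1 (-1.95), a lineage transcription factor, and Cspg5 (-1.31), a proteoglycan, were among those that fell.

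Choroid plexus and ependymal genes fell in 6 of 8 cases (median -1.84), but with wide overlap. Ttr, the thyroid hormone carrier made by the choroid plexus, ranged from 1709.6 to 6736 normalized reads (median 3358) in the 8 libraries and from 2772 to 62192 (median 11199) in the other 16. The highest value was that of the control of ZT22 labelled replicate 2, and the next highest was 18121. Its difference was -1.78 ± 0.36 (SE, adjusted p = 4.81e-04), and the calls for Ttr and for Enpp2 (-1.63), a lysophospholipase of choroid plexus and oligodendrocytes, were lost in 3 alternative edgeR fits (the i5 index in the model, controls alone, and controls of index TATAGCCT alone), with adjusted p up to 0.725 and 0.807. Clic6 (-1.78), Kl (-1.90), which encodes the hormone co-receptor klotho, and Sostdc1 (-2.19) fell. Kl and Sostdc1 lost the call in the same 3 fits (adjusted p up to 0.557 and 0.621) and Clic6 in the first and last of them (adjusted p up to 0.206). Rarres2 (0.32) did not pass the test. Fibroblast genes did not move together, with 1 of 13 higher, Ogn (1.07), and 1 lower, Igf2 (-1.19). Either count is 7.69% of the list, where 5.85% and 10.9% of all genes were called higher and lower. Ogn lost its call without the control of ZT18 labelled replicate 1, and 2 genes were lower without 1 of 3 controls (ZT6 replicate 1, ZT10 replicate 2 or ZT14 replicate 2). None of 5 proliferation genes was called.

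**Figure D3:**
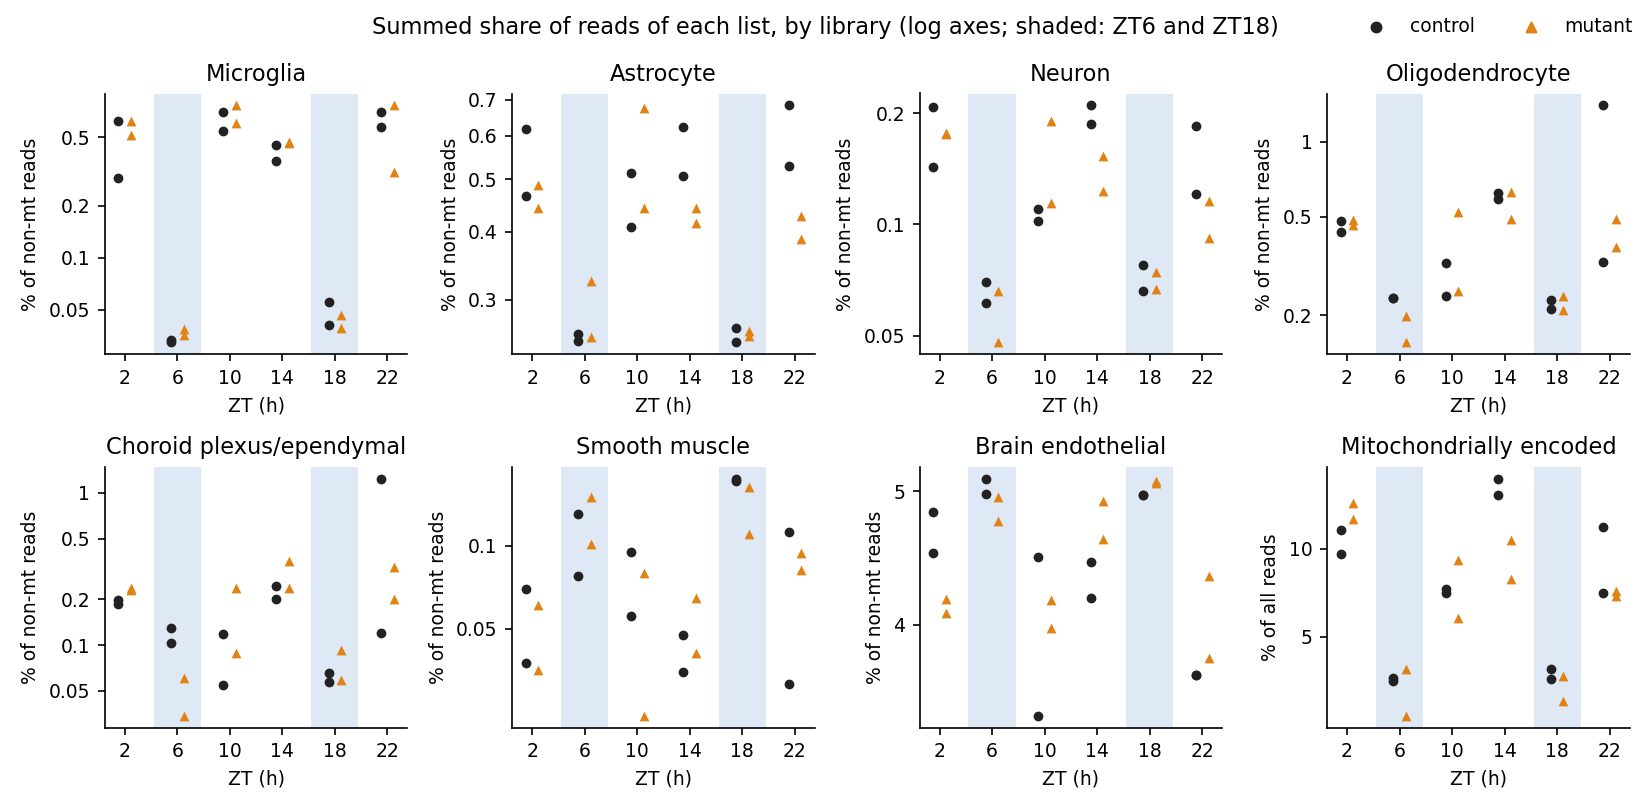
Share of each library's reads taken by summed gene lists (percent, log axes), 1 panel per list and 1 point per library, by time of day in hours, with the ZT6 and ZT18 libraries shaded, controls as black circles and mutants as orange triangles. The microglial panel shows a gap from 0.0553% to 0.292% with no library between, the astrocyte, neuronal and mitochondrial panels also separate, and the choroid plexus and smooth muscle panels overlap.

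The summed shares show where the groups overlapped and where they did not. Neuronal genes took 0.0480% to 0.0778% of the reads outside the mitochondrial genome in the 8 libraries and 0.0919% to 0.210% in the others. Astrocyte genes took 0.251% to 0.325% against 0.388% to 0.683%, again without overlap. Oligodendrocyte genes took 0.156% to 0.240% against 0.238% to 1.40%, with ranges that met in a narrow band. Choroid plexus genes overlapped widely, at 0.0342% to 0.130% against 0.0550% to 1.23%. The highest share of both lists belonged to the control of ZT22 labelled replicate 2, and the next highest library had 0.627% for oligodendrocyte and 0.355% for choroid plexus genes. The lowest choroid plexus share was that of the mutant of ZT6 labelled replicate 2 in the 8 libraries, the next being 0.0575%, and that of the control of ZT10 labelled replicate 2 in the others, the next being 0.0882%. Ratios between the 2 sets thus differed by cell type, and the microglial list, at a median of 0.0388% against 0.563%, was apart by much more than any of the neural lists.

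Endothelial genes were higher by small amounts. Of 34 genes of brain endothelium, 19 rose and none fell, with a median of 0.30, and 31 of the 34 differences were above 0. Their summed share was 4.75% to 5.10% (median 4.97%) in the 8 libraries and 3.44% to 4.92% (median 4.18%) in the others. Cdh5, the cadherin of endothelial junctions (chromosome 8, 104101625 to 104144511, plus strand of GRCm38), ranged from 7412 to 8317 normalized reads (median 8020.4) in the 8 libraries and from 4456 to 6590.3 (median 5374) in the other 16, a difference of 0.53 ± 0.08 (SE, adjusted p = 2.71e-06). Tek, the Tie2 receptor whose promoter drives Cre in the mutants (chromosome 4, 94739289 to 94874976, plus strand), lay between 6620.0 and 8010.1 with a median of 7143, against 4119 to 6413 with a median of 5201, a difference of 0.51 ± 0.07 (SE, adjusted p = 2.71e-06). In both genes all of the 8 libraries lay above all of the other 16. Kdr, the main receptor of vascular endothelial growth factor, lay between 11157 and 14205 with a median of 12028, against 5463 to 10524 with a median of 8279, and Emcn, a sialoprotein of capillaries and veins, lay between 2209.7 and 2560.0 with a median of 2308, against 911 to 1905 with a median of 1582, again without overlap. Pecam1, which encodes the sorted antigen CD31, ranged from 7869 to 10485 normalized reads (median 9347) in the 8 libraries and from 4908 to 7949 (median 6997) in the other 16, with 0.47 ± 0.08 (SE, adjusted p = 7.06e-05), and its ranges met in a narrow band. The monocarboxylate transporter Slc16a1 (0.58), the surface antigen Ly6a (0.48), the transcription factor Erg (0.49) and the receptor Flt1 (0.35) rose too.

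Genes that characterize the blood–brain barrier itself were called in part. The efflux transporter gene Abcb1a (0.35) and the tight junction gene Ocln (0.31) rose, with differences of only 0.04 and 0.01 under endothelial scaling. Members that did not pass the test included the tight junction gene Cldn5 (0.25), the glucose transporter Slc2a1 (0.21), the organic anion transporter Slco1a4 (0.17), the lipid transporter Mfsd2a (-0.02) and the transcription factor Sox18 (-0.14). Among arterial genes, 2 of 12 rose (16.7%, against 5.85% of all genes), with a list median of 0.34. They were the ephrin gene Efnb2 (0.52) and the connexin gene Gja4 (0.48), a count of 1 to 3 when 1 library was left out. Gja4 lost its call in 8 of the 24 such fits. Among venous genes, 4 of 11 rose (median 0.28, and -0.02 under endothelial scaling), Tmem252 (1.08), Nr2f2 (0.39), a transcription factor of vein identity, the glutamine transporter Slc38a5 (0.51, and -0.03 with the i5 index in the model) and Ephb4 (0.28, and -0.02 under endothelial scaling). Leaving out 1 library gave 1 to 4 venous genes, 2 or fewer in 11 of the 24 fits. Nr2f2 and Ephb4 each lost the call in 13 of these fits and Slc38a5 in 12. Under endothelial scaling 3 of the 34 endothelial genes were higher and 1 was lower, no arterial gene was called and 1 venous gene was higher. All 20 microglial genes, with a median of -4.05, and all 13 mitochondrial genes were still called there. So were 20 astrocyte genes and all 24 neuronal genes, where the reported fit called 19 and 21 lower, so that some of these calls were gained.

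Mural cell genes divided into 2 sets. Of 10 smooth muscle genes, 8 rose, with a median of 1.24, and 7 of them were still called higher under endothelial scaling (median 0.91). Acta2, the smooth muscle actin (chromosome 19, 34241090 to 34255590, minus strand of GRCm38), ranged from 644 to 1465 normalized reads (median 1129) in the 8 libraries and from 48.7 to 715 (median 297) in the other 16, a difference of 1.64 ± 0.29 (SE, adjusted p = 6.68e-05). Myh11, the smooth muscle myosin heavy chain, lay between 2091 and 4846 with a median of 3797, against 558 to 3028 with a median of 1349, with a difference of 1.34. In both genes the 8 libraries held the highest values, but the lowest of the 8 lay within the range of the others. Tagln (1.69), Tpm2 (1.56) and Cnn1 (2.83), further parts of the contractile apparatus, rose by similar or larger amounts, the last on low reads (SE 0.84). Myl9 (0.90), Mylk (0.66) and Des (1.14) also rose, and Map3k7cl (0.69) and Mustn1 (0.50) did not pass the test. Outside the list, Lmod1 (1.81), which nucleates smooth muscle actin filaments, was among the 5 largest increases.

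Pericyte genes rose less. Of 14 pericyte genes, 8 rose and all 14 differences were above 0 (median 0.46), among them Rgs5 (0.49), a regulator of G protein signalling, Pdgfrb (0.45), the receptor that recruits pericytes, and Abcc9 (0.52), a subunit of potassium channels. None of the 14 was called under endothelial scaling (median 0.13). Over the 24 fits that left out 1 library 3 to 12 were called, 3 without the control or the mutant of ZT18 labelled replicate 2 and 5 without the mutant of ZT6 labelled replicate 1. Pericyte genes took 0.239% to 0.409% of reads in the 8 libraries against 0.184% to 0.334%, and smooth muscle genes took 0.0778% to 0.174% against 0.0242% to 0.112%. Basement membrane genes, which endothelium and mural cells both make, rose in 7 of 15 cases, and the median over all 15 was 0.27, which turned to -0.05 under endothelial scaling. Col4a1 (0.46), a chain of collagen IV, Lama4 (0.42), a laminin chain, and Nid1 (0.46) were examples.

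**Figure D4:**
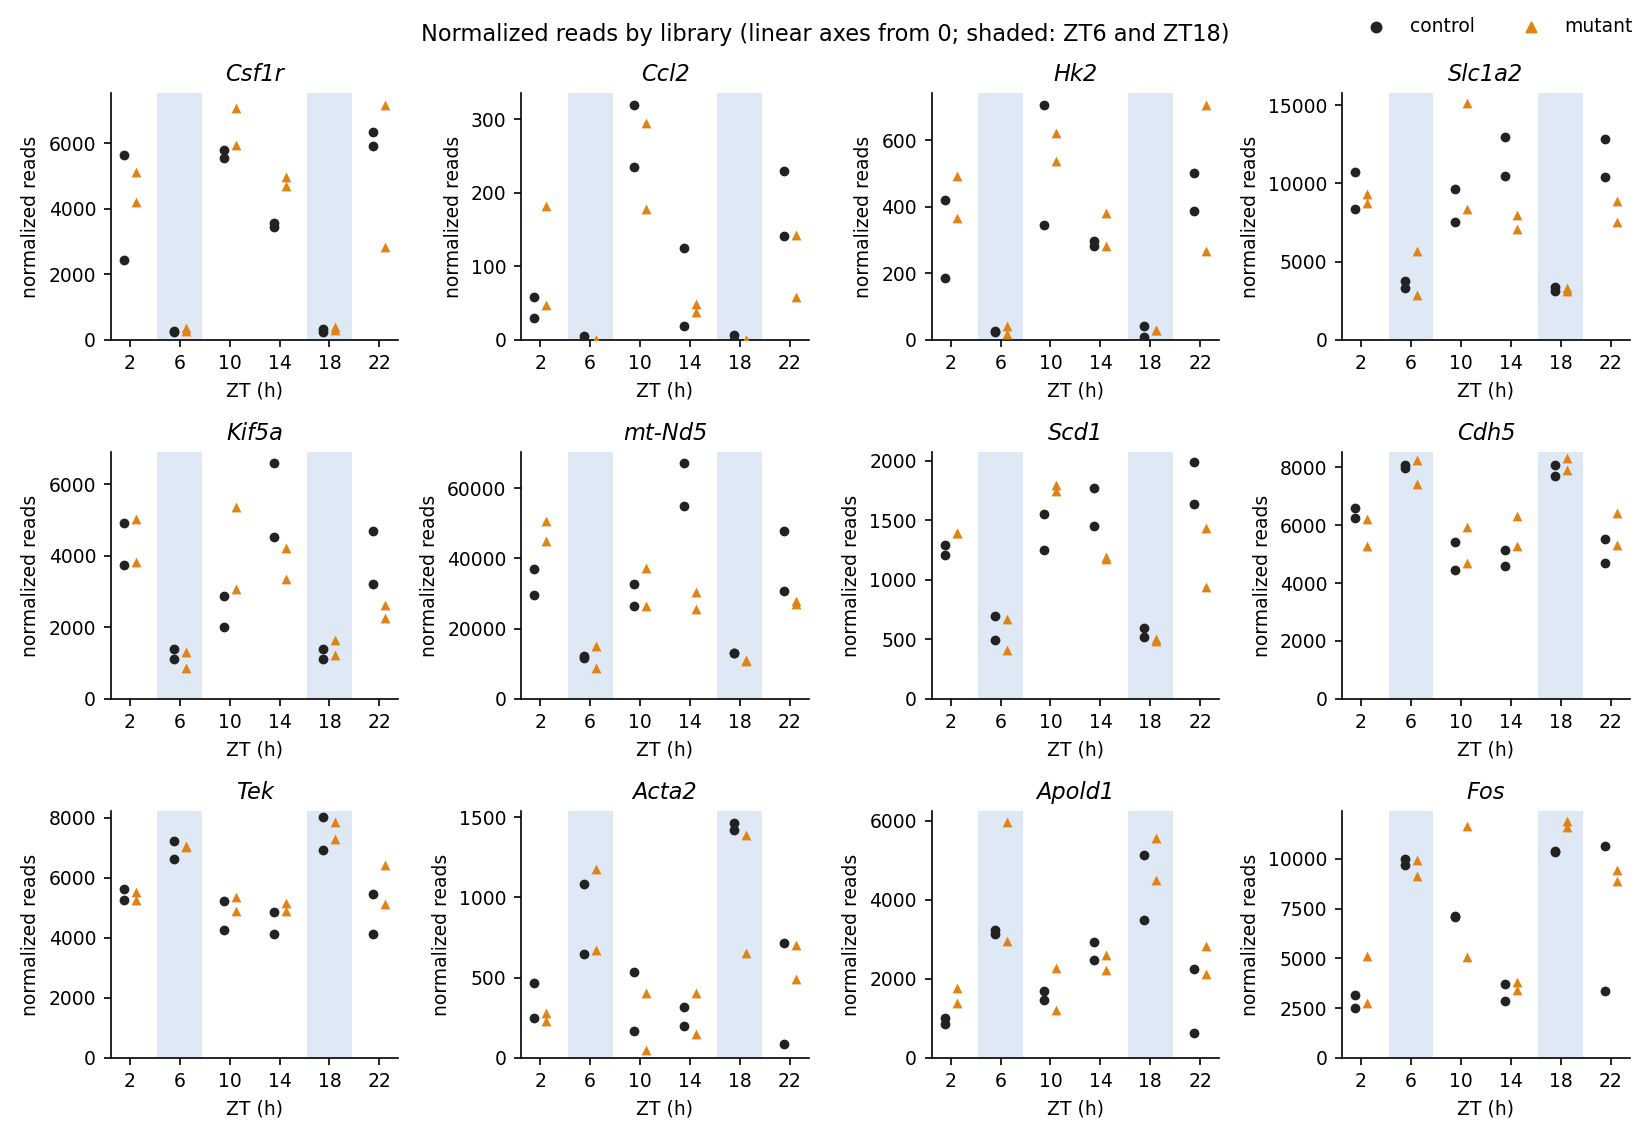
Normalized reads (linear axes from 0) of 12 genes in every library, by time of day in hours, with the ZT6 and ZT18 libraries shaded, controls as black circles and mutants as orange triangles. Csf1r, Ccl2, Hk2, Slc1a2, Kif5a, mt-Nd5 and Scd1 are lower without overlap in the 8 libraries, Cdh5, Tek and Apold1 are higher without overlap, and Acta2 and Fos are higher with overlap.

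The 13 protein genes of the mitochondrial genome all fell, with a median of -1.62 (3.08-fold), and for 8 of them the groups did not overlap. The decreases were alike, from -1.35 for mt-Co2, a subunit of cytochrome c oxidase, to -1.92 for mt-Nd3, a subunit of complex I. The complex I gene mt-Nd5 (mitochondrial genome, 11742 to 13565, plus strand) ranged from 8870.1 to 15169 normalized reads (median 11935) in the 8 libraries and from 25532 to 67223 (median 31699) in the other 16, a difference of -1.63 ± 0.16 (SE, adjusted p = 7.26e-10). Mitochondrially encoded genes took 2.68% to 3.90% of all reads in the 8 libraries and 5.78% to 17.4% in the others. The 87 nuclear genes of the respiratory chain did not move with them. Of these, 2 rose and 2 fell (2.30% each, against 5.85% and 10.9% of all genes), with a median of -0.10, and 0 to 2 genes rose when 1 library was left out. With the mitochondrial genes left out before scaling, 1012 genes were higher and 1649 were lower.

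Within the other 16 libraries, the mitochondrial share was related to neuronal reads but not detectably to microglial reads. Over those 16 mice, Pearson's r with the log2 neuronal share was 0.827 (permutation test with 100000 resamples, two-sided p = 7.0e-05, adjusted p = 0.00084 over the 12 relations computed) and Spearman's rho was 0.832 (adjusted permutation p = 0.0018). Without the 2 libraries farthest from the median mitochondrial share r was 0.835. For the smooth muscle share r was -0.652 (adjusted permutation p = 0.0395) and rho was -0.735 (adjusted permutation p = 0.0109), with r of -0.678 without the 2 farthest libraries. Libraries with more mitochondrial reads thus held more neuronal and fewer smooth muscle reads. The oligodendrocyte share gave r of 0.586 (adjusted permutation p = 0.0598) and rho of 0.624 (adjusted permutation p = 0.0458). For microglia r was -0.197 (adjusted permutation p = 0.565) and rho was -0.162, and for endothelium r was 0.202. Within the 12 libraries of index ATAGAGGC, r was 0.829 for neurons (adjusted permutation p = 0.0143 over 12 within-group tests), -0.636 for smooth muscle (adjusted permutation p = 0.0878) and -0.235 for microglia, with rho of 0.846 for neurons (adjusted permutation p = 0.00888) and -0.671 for smooth muscle (adjusted permutation p = 0.0436). Within the 8 other controls r was 0.849 for neurons (adjusted exact permutation p = 0.0619) and within the 8 other mutants it was 0.785 (adjusted exact permutation p = 0.0878). For smooth muscle the corresponding values were -0.746 (adjusted exact permutation p = 0.0932) and -0.583 (adjusted exact permutation p = 0.197). Spearman's rho for neurons was 0.810 in these controls and 0.833 in these mutants (adjusted exact permutation p = 0.0436 in both). For smooth muscle rho was -0.857 in controls (adjusted exact permutation p = 0.0436) and -0.738 in mutants (adjusted exact permutation p = 0.0786). For the oligodendrocyte share rho was 0.833 in controls (adjusted exact permutation p = 0.0436) and 0.310 in mutants (adjusted exact permutation p = 0.592). Both relations had the same sign in each of these subsets. Among the 8 libraries of ZT6 and ZT18 themselves, where the mitochondrial share spans a narrow range, none of the 6 relations had an adjusted exact permutation p below 0.05. All these shares are parts of the same libraries' reads, and they were not measured independently of each other. The permutations did not keep mice of the same time of day together. Mitochondrial shares of the 2 mice of a group were at times close, 17.4% and 15.3% in controls of ZT14. At other times they were not, 7.07% and 11.9% in controls of ZT22. The part of time of day in these relations was not tested.

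**Figure D5:**
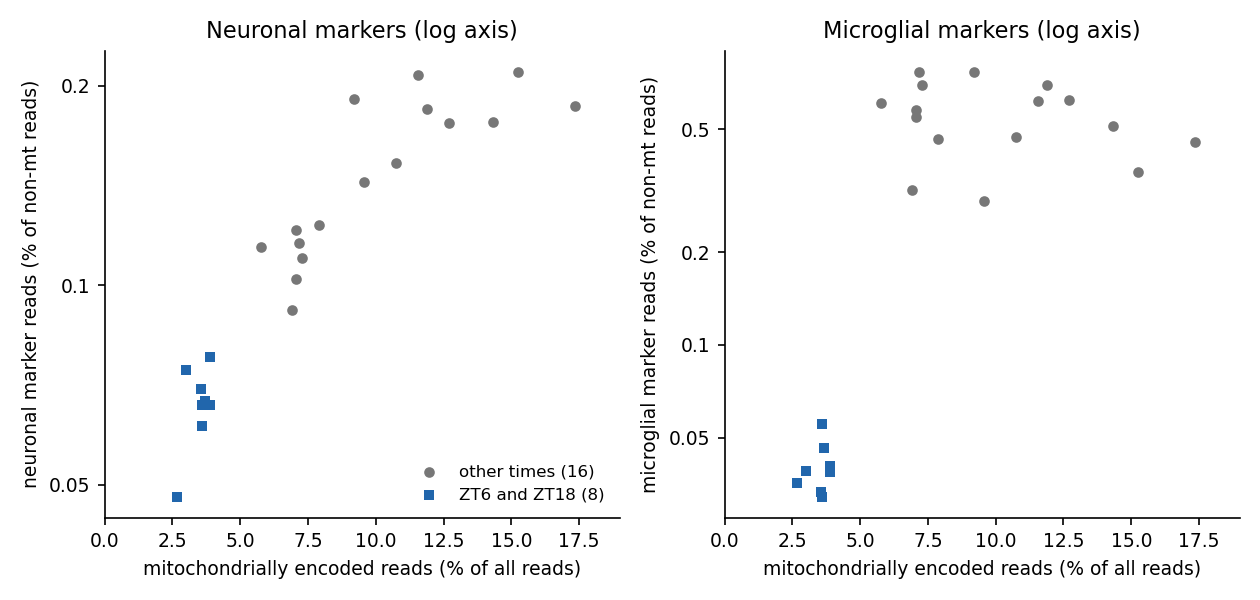
Mitochondrial share of all reads (x axis, percent) against the share taken by neuronal and by microglial genes (y axes, percent, log scale), 1 point per library. Among the other 16 libraries the neuronal share climbs with the mitochondrial share (r = 0.827) and the microglial share does not (r = -0.197), while the 8 libraries of ZT6 and ZT18 sit together at the low end of both.

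Genes of acute stimulation were higher in the 8 libraries. Of 26 immediate-early genes, 14 rose and none fell (median 0.52, with 0 to 2 called lower when 1 library was left out). Of the 26 differences, 23 were above 0 and 3 below. The lowest, -1.90, was not called but lay farther from 0 than the highest, 1.24. The summed share of the list was 1.51% to 2.16% against 0.650% to 1.99%. Some of the other libraries lay within the range of the 8. They were the control of ZT22 labelled replicate 1 (1.92%), the mutant of ZT10 labelled replicate 1 (1.99%) and the mutants of ZT22 (1.68% and 1.96%). The remaining others lay below that range. Under endothelial scaling, 5 of the 26 genes were higher and 3 were lower (median 0.19). Fos, the archetype of the class, ranged from 9142 to 11916 normalized reads (median 10174) in the 8 libraries and from 2499 to 11653 (median 4437) in the other 16, a difference of 0.88 ± 0.22 (SE, adjusted p = 0.00392) that was 0.53 and not called under that scaling. Fosb (1.00), the orphan nuclear receptors Nr4a1 (1.19) and Nr4a2 (1.24), and the MAP kinase phosphatase Dusp1 (0.89) rose, as did Klf4 (0.89) and Klf2 (0.71), transcription factors that endothelium induces under flow. Jun (0.20), Egr1 (0.33) and Atf3 (0.46) did not pass the test. Microglia and other glia express these genes too, so that the level measured here belongs to the whole preparation. Of 15 heat shock genes, 2 rose (13.3%, against 5.85% of all genes), Hsp90ab1 (0.32) and Hspb1 (0.67), and neither was called under endothelial scaling. Leaving out 1 library gave 1 to 3 higher heat shock genes. Of 17 genes of endoplasmic reticulum stress none was called (median 0.00). In both lists 0 to 1 gene was called lower when 1 library was left out.

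At a difference of 1 or more, the increases with the smallest p-values came from several functional groups. Apold1, an endothelial gene induced by stimulation (chromosome 6, 134981718 to 134986836, plus strand of GRCm38), ranged from 2955 to 5972 normalized reads (median 3993) in the 8 libraries and from 637 to 2924 (median 1950.3) in the other 16, a difference of 1.19 ± 0.19 (SE, adjusted p = 1.33e-05). Rasd1, a small GTPase induced by glucocorticoids (chromosome 11, 59963181 to 59964944, minus strand), lay between 389 and 643 with a median of 515, against 133 to 351 with a median of 252, a difference of 1.03 ± 0.14 (SE, adjusted p = 6.63e-07). Cebpd, a transcription factor of acute responses, lay between 712 and 1159 with a median of 873, against 149.5 to 636 with a median of 479, a difference of 1.02. In these genes every one of the 8 libraries was above every one of the others. Moxd1, which encodes a monooxygenase-like protein (chromosome 10, 24223517 to 24302790, plus strand), had the largest increase under the same limit of 50 reads in the higher set, 2.59 ± 0.38 (SE, adjusted p = 3.26e-06), and lay between 61.9 and 137 with a median of 89.1, against 0 to 35.9 with a median of 15.4. Stc1 (1.6), the hormone stanniocalcin, Kcne4 (1.56), a potassium channel subunit, and Steap4 (1.45), a metalloreductase of mural cells, rose with overlapping groups. So did Tcim (1.05), Hes1 (1.02), a target of Notch signalling, and Rgcc (1.01), a regulator of the cell cycle. Fam71a (1.73) and the long non-coding RNA Gm26802 (1.65) completed the 5 largest increases together with Moxd1, Lmod1 and Tagln. These 14 increases, the 10 smallest p-values at a difference of 1 or more and the 5 largest differences at a mean of 50 or more reads in the higher set, with Moxd1 in both, were all still called higher under endothelial scaling. In other alternative fits some lost the call, Lmod1 in 3, Tagln and Rgcc in 2 each, and Kcne4, Steap4 and Gm26802 in 1 each. The remaining ones kept it in every fit in which they were tested.

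Other genes without overlap were raised by modest amounts and were chosen after their values were seen. Plk2, a kinase induced by stimulation (chromosome 13, 110395046 to 110400844, plus strand of GRCm38), had the smallest p-value of all increases and lay between 2379 and 3562 with a median of 2921, against 1035 to 2189.7 with a median of 1546, a difference of 0.87 ± 0.10 (SE, adjusted p = 6.28e-08). Lmna (0.79), which encodes the nuclear lamins A and C, Vim (0.52), the intermediate filament vimentin, and Gimap6 (0.75), a GTPase of endothelium and lymphocytes, also had no overlap. So did Psma7 (0.48), a subunit of the proteasome, of whose list 5 of 38 genes rose (13.2%, against 5.85% of all genes). The median over all 38 was 0.16, which turned to -0.17 under endothelial scaling, with 2 to 6 called when 1 library was left out. Of the 29 genes that did not overlap on the higher side, 4 were in a cell type list, Cdh5, Emcn, Kdr and Tek. On the lower side 39 of 364 were in such a list, and 164 of the 364 had fallen to -2.90 or below. The filter on reads can pass genes of the lower side that were read only in the other 16 libraries.

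Interferon-stimulated genes rose in 7 of 17 cases (median 0.39), and under endothelial scaling 1 was still called (median 0.08). Without the control of ZT6 labelled replicate 1 the count was 4 and without the mutant of ZT2 labelled replicate 1 it was 13. Irf7 (0.67), a transcription factor of the response, Ifit2 (0.68) and Ifitm3 (0.47), a membrane protein that limits viral entry, were among them. Of 12 MHC class I genes 1 was called higher, H2-Q4 (0.41), a share of 8.33% near the 5.85% of all genes, and the list's median turned from above 0 to -0.08 under that scaling. Leaving out 1 library gave 0 to 3 of these genes, and the filter that treats both sets alike gave 2. Of 14 genes that respond to glucocorticoids 4 rose, the cell cycle inhibitor Cdkn1a (1.07), the kinase Sgk1 (0.55), Errfi1 (0.84), a feedback inhibitor of growth factor receptors, and Nfkbia, and 1 of the list was higher under endothelial scaling. The count was 2 to 5 when 1 library was left out, and 2 without the control of ZT6 labelled replicate 2, the control of ZT18 labelled replicate 1 or the mutant of ZT18 labelled replicate 2. Fkbp5 (-0.66) and Tsc22d3 (0.47), the members of that list most used as readouts of the hormone, did not pass the test.

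Single genes of lipid and serine synthesis were lower in the 8 libraries. Scd1, a desaturase that makes oleate (chromosome 19, 44394455 to 44407879, minus strand of GRCm38), ranged from 406 to 699 normalized reads (median 509) in the 8 libraries and from 939 to 1989 (median 1412) in the other 16, a difference of -1.41 ± 0.12 (SE, adjusted p = 3.36e-11). Its neighbour Scd2 (chromosome 19, 44293674 to 44306864, plus strand), the desaturase of brain cells, lay between 1629.5 and 2297 with a median of 2079.6, against 3152 to 5349 with a median of 3520.0, a difference of -0.92 ± 0.10 (SE, adjusted p = 5.85e-09). For Scd1 and Scd2 the groups did not overlap. Fasn (-0.71), the fatty acid synthase, fell with them, and these 3 were the decreased members among the 21 genes of cholesterol and fatty acid synthesis (14.3%, against 10.9% of all genes), whose median was -0.03 and of which 1 rose (0 to 2 when 1 library was left out). Among 12 genes of the ATF4 response, 5 fell and 3 rose. The decreased members were Phgdh (-2.19) and Psat1 (-1.67), which encode enzymes of serine synthesis, Mthfd2 (-2.01), of mitochondrial folate metabolism, Slc7a11 (-1.05), the cystine transporter, and Vldlr (-1.98), a lipoprotein receptor. The increased members were Atf4 itself (0.54), Trib3 (0.97) and Ddit4 (0.64), regulators of growth signalling. Under endothelial scaling these 3 were at 0.21, 0.68 and 0.34 and none was called. Mthfd2 passed the filter through the other 16 libraries only, and it lost its call in 10 fits that left out 1 library and Trib3 in 15. The list gave 1 higher gene without the mutant of ZT6 labelled replicate 2 and 3 lower genes without the control of ZT6 labelled replicate 2. Phgdh is strongly expressed in astrocytes, whose 23 list genes ranged from -1.97 to 0.50, and the part of those cells in its difference was not tested.

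Ribosomal, nuclear RNA and splicing genes, which most cells share, moved little. Ribosomal protein genes rose in 2 (2.30%) and fell in 5 (5.75%) of 87 cases (median -0.09), where 5.85% and 10.9% of all genes did. These counts were 0 to 2 and 3 to 5 when 1 library was left out. Of the 10 nuclear non-coding RNAs, Gas5 (0.42, and 0.09 without a call under endothelial scaling) rose and Meg3 (-1.59), which is abundant in neurons, fell, while Malat1 (0.12) and Neat1 (0.04) did not pass the test. Either count is 10% of that list, near the shares of all genes. Of 22 splicing genes, 2 rose (9.09%, near the 5.85% of all genes), and 1 to 3 rose when 1 library was left out. Among them was Prpf4b (0.30), whose sign turned under endothelial scaling. Among the 251 solute carriers tested, the transporter family to which many barrier genes belong, 16 rose (6.37%) and 47 fell (18.7%), where 5.85% and 10.9% of all genes did. Of the 251, 18 passed the filter through the other 16 libraries only, and without them 41 of 233 fell. Of 12 core clock genes 1 was called, Clock (0.27), a share of 8.33% near the 5.85% of all genes called higher. Clock turned sign under endothelial scaling and lost the call without the control of ZT6 labelled replicate 1. In the same list, 1 gene was called lower without the mutant of ZT18 labelled replicate 2. With 24 h sine and cosine terms added to the model, 992 genes were higher and 1716 were lower.

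Whether the difference depended on genotype was tested with an interaction term. In edgeR no gene passed at an adjusted p below 0.05, and 281 genes were more positive and 331 more negative in mutants at an unadjusted p below 0.05. DESeq2 also called 0 genes. In simulated data this test recovered 22 of 100 genes with a 2-fold and 60 of 100 with a 4-fold change in the effect. Differences of these sizes between genotypes could therefore have been missed. The direct comparison of ZT6 with ZT18 likewise called 0 genes in edgeR, with 420 higher at ZT6 and 373 higher at ZT18 at an unadjusted p below 0.05. In simulated data that comparison recovered 37 of 100 genes changed 2-fold and 61 of 100 changed 4-fold, so it too could miss such differences. Fitted on the 8 libraries alone, edgeR called 9 genes. Dbp (2.47, adjusted p = 1.98e-04), Nr1d2 (2.15) and Nr1d1 (2.98), output and repressor genes of the clock, and Fam214a (1.12) were higher at ZT6. Hspa1a (-1.51), Hspa1b (-1.32) and Hsp90aa1 (-0.68), which encode heat shock proteins, Cdkn1a (-0.92) and Plat (-0.72), the tissue plasminogen activator, were higher at ZT18. None of these 9 is a microglial, neural or mural marker of the lists used.

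The 8 libraries detected fewer genes. Between 15567 and 17048 genes (median 16048.5) had a read in them, against 15693 to 18632 (median 17250.5) in the others, a difference of -879 in the mean (exact permutation test within genotypes, 245025 arrangements, two-sided p = 0.015). Of the genes with 5 or more reads, the 8 libraries had a mean of 722 fewer (exact permutation p = 2.16e-04). The called genes were longer in exons and slightly richer in GC than all genes tested. The median exon length was 4857 bases for higher genes, 5002 for lower genes and 4168 for all genes, and the median GC content was 49.5%, 50.4% and 49.1%. Protein-coding genes made up 98.6% of the higher genes, 93.2% of the lower genes and 84.4% of all genes. The median level over all libraries was 633 reads for the higher genes, 94.6 for the lower genes and 98.7 for all genes tested.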

How the data were processed

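Reads of total RNA libraries (SMARTer Pico v2, stranded) from single mice were aligned by the authors with STAR 2.5.3a to GRCm38 (SAMtools 1.3.1 is also named in the submitters' processing notes), quantified per Ensembl gene and normalized with PORT. The deposited values are whole-number counts for 53465 genes, already brought to similar totals, so the original depth is not known. Replicates are separate mice.

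From these counts, a gene was kept (15493 in all) if 6 controls or 6 mutants had at least 5 reads of it. The fit was genotype plus library set in edgeR 4.0.16 (R 4.3.3, TMM, quasi-likelihood test, Benjamini-Hochberg adjustment). Alternatives used DESeq2 1.42.0, limma 3.58.1 and other filters, scalings, covariates and subsets. Python used numpy 2.4.6, scipy 1.17.1, pandas 2.3.3 and matplotlib 3.10.9. Coordinates are from a GENCODE annotation of GRCm38.

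Genes named are the 10 smallest p-values on each side at an absolute difference of 1 or more, the 5 largest differences on each side at a mean of 50 or more reads in the higher set, and leading and most significant members of the lists; further list members illustrate counts, and others are marked. Some genes that the rule names are not reported here. The members, lists and tests were chosen with earlier results of these data known, which the p-values do not take into account. On simulated counts for 15493 genes the test recovered 58 of 100 genes changed 2-fold and 26 of 100 changed 1.5-fold, with 2.33% false calls. The simulation changed few genes, with increases and decreases balanced. The real calls lay mostly on the lower side and depended on the scaling, so this rate does not carry over to them.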

Additional observations from a re-analysis of the deposited data

Results flagged for a closer look

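Within the 8 libraries of ZT6 and ZT18, 9 of the 93 measures and genes examined had 1 library far from the other 7, where about 1 in 20 is met by chance. The mutant of ZT6 labelled replicate 1 stood apart in 6 of them. It had the highest total, 6217357 reads, the next being 6162060. Its astrocyte genes took the highest share of reads, 0.325% against 0.266% for the next library. Brain endothelial genes took their lowest share in it, 4.75% against 4.95% for the next, and venous genes too, 0.144% against 0.172%. Slc1a2 was highest there at 5668 normalized reads, the next library having 3788. Laptm5, a lysosomal gene of the macrophage lineage, was lowest at 66.3 normalized reads, with 103 in the next.

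In the control of ZT18 labelled replicate 2, Tyrobp reached 60.9 normalized reads against 24.2 in the next library, and Rgcc was lowest at 518 against 871. Gpr84 had 7.96 normalized reads in the control of ZT6 labelled replicate 1 and 0 in the other 7.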

How the results depend on the processing

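Against 907 higher and 1688 lower genes, leaving out each library in turn gave 775 to 1003 and 1577 to 1722. Counts moved with 10 or more reads required in every library (656 and 968 of 9863 genes), the i5 index as a covariate (191 and 812), controls alone (209 and 855), controls of index TATAGCCT alone (164 and 632) and endothelial scaling (79 and 3921, added after seeing the data). Higher genes numbered 402 in mutants alone, 300 with ZT6 alone and 458 with ZT18 alone. These subsets hold fewer libraries. Nearer counts came from DESeq2 (937 and 2001), limma-voom (1083 and 1549), DESeq2 size factors in edgeR (836 and 1717), unscaled totals (1170 and 1604), no filter (1077 and 1902), a filter alike for both sets (981 and 1728, added after seeing the data), a Y-linked level as covariate (909 and 1682), the set without the 3 libraries whose numbers lie apart from the rest (859 and 1587) and the set without both control ZT14 libraries (940 and 1667, added after seeing the data). ZT6 against ZT18 gave 9 genes with the 8 libraries alone.

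Among genes called in the reported fit, signs turned with the i5 covariate for Slc38a5 (-0.027) and with endothelial scaling for Ephb4 (-0.016), Clock (-0.056), Prpf4b (-0.023) and Psmc3 (-0.057). Srsf1, not called in the reported fit, was called lower under endothelial scaling (-0.29). The cause was not tested. Over 271 named genes and 11839 values, 10791 kept direction and side of the threshold, 695 lost the call, 102 gained it, these 6 turned, and 245 values of 61 genes changed sign without a call in either fit.

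With the replicate number as a block, 923 genes were higher and 1695 lower, and the interaction and the comparison of ZT6 with ZT18 stayed at 0. Same-numbered samples did not pair over all genes. Their deviations correlated at -0.069 to 0.141 (median 0.0096) over 66 pairs of groups, 1 of them over 0.1. The summed share of Xist and Y-linked genes was higher in replicate 1 than in replicate 2 in most groups. Controls of ZT2 were an example (0.103% against 0.0241%), and controls of ZT18 went the other way (0.123% against 0.133%). Low reads limit the genes near 0, for which fitted differences depend on a prior count.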
